A study of Mus musculus with 8 samples.

Results

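Prolactin (*Prl*), growth hormone (*Gh*), the shared alpha subunit of the glycoprotein hormones (*Cga*), the hormone-specific beta subunits *Tshb*, *Lhb* and *Fshb*, the pituitary transcription factor *Pou1f1* and the prolactin receptor *Prlr* were examined as a group of 8 genes. All probes carrying one of these gene names were taken, which gave 11 probes of 7 genes among the 41174 probes of the array. *Pou1f1* had no probe under that name, and 1 probe called Pit1 in the files was assigned to it by its transcript accession, making 12 probes. The genes were chosen from the PACAP38-over-saline ratios of these same arrays, mainly those of *Prl* and *Cga*, so that the ratios below are a description and carry no test.

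Gene expression was measured in the right hemisphere of male C57BL/6J mice aged 8 to 12 weeks, on the side of the occlusion. The mice received either permanent middle cerebral artery occlusion (PMCAO), in which a filament blocks the artery that feeds much of the hemisphere, or a sham operation in which the external carotid artery was exposed and the wound closed. Immediately afterwards 1 pmol of PACAP38 in 1 µl, or 1 µl of saline, was injected into a cerebral ventricle, and tissue was taken at 6 h or 24 h. PACAP38 is a neuropeptide first isolated from hypothalamus through its action on pituitary cells. The study used it to ask which genes of the sham and the ischemic brain respond to it. PMCAO mice were those with neurological grades 1 and 2, sham mice were picked at random, and the hemisphere was taken without olfactory bulb and cerebellum, on the side opposite to the injection. Each of the 8 groups was pooled RNA from 3 mice. Each pair of PACAP38 and saline pools was hybridized to 2 arrays with the dyes Cy3 and Cy5 exchanged. The titles number the pools of these arrays 1 and 2, but the methods give 3 mice a group and a dye swap, so both arrays were taken as the same pools. Every group then has 1 replicate and the spread given here is technical, with none between mice.

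Anterior pituitary hormones are made by separate cell types of the gland. Lactotrophs make prolactin and somatotrophs make growth hormone, and both depend on *Pou1f1* (also called Pit-1), as do the thyrotrophs. The alpha subunit encoded by *Cga* pairs with the product of *Tshb* to form thyrotropin, with that of *Lhb* to form luteinizing hormone, and with that of *Fshb* to form follitropin. Prolactin acts through *Prlr*, which signals by JAK2 and STAT5, and in brain this receptor is known from choroid plexus and from neurons of the hypothalamus.

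The values rest on single spots, and each of the 12 probes is printed once per array. The first 30 of the 60 bases are given here as they stand in the array files for the probes that carry the clearest differences and for the receptor, whose 3 probes do not behave alike. The *Prl* probe was placed by the array maker at chr13:26430663-26430722, the *Cga* probe at chr4:35045913-35045972 and the 3 *Prlr* probes at chr15:10387524-10387583, chr15:10394904-10394963 and chr15:10398442-10398501, in the order of the lines below, all in the mm7 build. Exon and UTR annotation of that build was not used here. Of the receptor probes, A_52_P458279 and A_52_P602987 were designed on receptor mRNAs, whereas A_51_P264673 was designed on a hippocampal cDNA clone that the files describe as unclassifiable.
Prl A_51_P155514: tgctttatagttttcagtgcatgcttgggt
Cga A_51_P504362: tgacgcgcttcagttacacactgcctcttt
Gh A_51_P104687: tggctgctgacacctacaaagagttcgagc
Prlr A_52_P458279: cttgaaagacacaactgtgtggatcattgt
Prlr A_52_P602987: gactttccattctgaaaacaatgttgattc
Prlr A_51_P264673: tctccatccactttgtagggacaacatgga

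The 250 bases before the transcription start were searched for letters that *Pou1f1* and CREB are known to bind, since PACAP receptors raise cyclic AMP. Promoter sequences came from RefSeq (GRCm38.p6) and were present for *Prl*, *Cga*, *Tshb*, *Lhb*, *Fshb*, *Pou1f1* and *Prlr*. The letters TATNCAT, on either strand, occurred 2 times before *Prl* and 1 time before the first of the 2 listed starts of *Pou1f1*, and in no other of these promoters. Of all 32851 promoters of the same length, 7.92% held the letters at least once and 1.26% at least 2 times. The palindrome TGACGTCA was in none of them, and in 1.55% of all promoters. Capitals mark the matching letters, and the lines begin with the position of the first matching base before the start.
Prl 148 bases before the start, chr13:27057412-27057438, plus strand: cttcctgaatATGAATAagaaataaaa
Prl 47 bases before the start, chr13:27057513-27057539, plus strand: tgattatataTATTCATgaagatgtca
Pou1f1 57 bases before the start, chr16:65520445-65520471, plus strand: aactattaacATGTATAaatggatttc

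Before the values, the quality of the arrays was examined. One of the sham arrays of 6 h, that with PACAP38 labeled by Cy3, stood apart. Its mean levels correlated with those of the other 3 arrays of 6 h at r = 0.839 to 0.869, whereas these 3 correlated among themselves at 0.979 to 0.994 and the 4 arrays of 24 h at 0.982 to 0.998 (17639 probes well above background in every channel). The 6 h arrays lay on 1 slide and the 24 h arrays on another, read by another scanner, and the effects of time and of slide cannot be told apart. Levels are compared only within a time point. After turning all ratios to PACAP38 over saline, the 2 arrays of a comparison correlated over all probes at -0.148 (sham) and -0.140 (PMCAO) for 6 h, and at -0.417 (sham) and 0.053 (PMCAO) for 24 h. Over probes well above background on both sides, the values were -0.005 (sham) and 0.153 (PMCAO) for 6 h. For 24 h they were -0.560 (sham) and 0.433 (PMCAO). A probe was called well above background where the scanner software marked it so. Brain markers were as the label says, with 5 of 6 or more neuronal genes and 4 of 5 or more glial genes well above background on both arrays of every pool.

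*Prl* was the clearest difference between saline and PACAP38 at 24 h, and it was high in the saline pools. In sham mice its processed signal, which is the background-subtracted and dye-normalized signal in arbitrary units, was 34.2 (Cy3) and 45.5 (Cy5) with saline, and 3.08 (Cy5) and 3.83 (Cy3) with PACAP38. In PMCAO mice it was 128 (Cy3) and 139 (Cy5) with saline, and 3.43 (Cy5) and 4.40 (Cy3) with PACAP38. The saline and PACAP38 signals did not overlap at 24 h in either surgery, and PACAP38 pools were not well above background on any of the 4 arrays. The log2 ratios of PACAP38 over saline were -3.48 and -3.57 in sham, and -5.22 and -4.98 in PMCAO. As the PACAP38 side was not above background, the fold is only bounded. In sham the saline pool was at least 2.53-fold above the PACAP38 pool for *Prl*, and in PMCAO at least 8.25-fold. Such limits set the mean of the brighter group against the lowest signal well above background, or the dim probe's own signal where that is higher, after loess and between-array normalization. Starting from normexp-corrected signals (offset 50) in place of the processed signals, the limits were 1.51-fold and 2.89-fold.

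At 6 h the *Prl* signal did not separate the pools. It was 19.5 (Cy3) and 20.8 (Cy5) with saline and 16.9 (Cy3) and 25.8 (Cy5) with PACAP38 in sham, and 16.6 and 27.5 with saline and 21.2 and 25.2 with PACAP38 in PMCAO. In each pool the Cy5 channel was well above background and the Cy3 channel was not. The log2 ratios had opposite signs on the 2 arrays, at 0.40 and -0.30 in sham and 0.60 and -0.37 in PMCAO. The order of *Prl* levels at 24 h was PMCAO saline, sham saline and then both PACAP38 pools, which overlapped each other below background, whereas at 6 h all neighbors in the order of the mean signals overlapped.

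**Figure D1:**
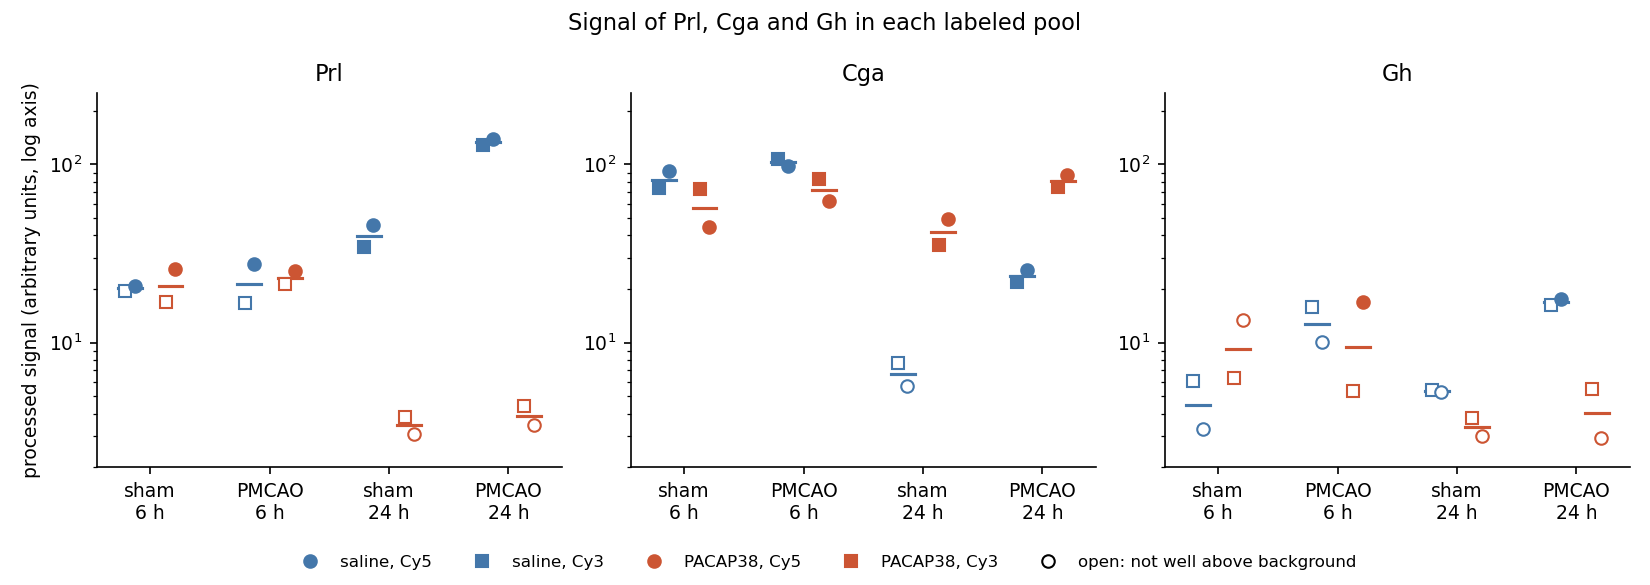
Processed signal (arbitrary units, log axis) of *Prl*, *Cga* and *Gh* in the 8 pools, with saline in blue and PACAP38 in red, circles for Cy5, squares for Cy3, bars for the geometric mean of both dyes and open symbols for channels not well above background. At 24 h *Prl* reaches 34.2 to 139 with saline and stays at 3.08 to 4.40 with PACAP38, while *Cga* is higher with PACAP38 in both surgeries.

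*Cga* differed in the opposite direction from *Prl* at 24 h, being high with PACAP38. In sham mice its signal was 35.2 (Cy3) and 49.4 (Cy5) with PACAP38, against 7.69 (Cy3) and 5.73 (Cy5) with saline, which was not well above background on either array. In PMCAO mice it was 75.0 and 87.5 with PACAP38 and 22.0 and 25.4 with saline, all well above background. No saline signal reached the PACAP38 signals of the same surgery. The log2 ratios were 2.68 and 2.62 in sham, where *Cga* was at least 2.94-fold higher in PACAP38 (1.47-fold with normexp), and 1.99 and 1.56 in PMCAO, a mean of 3.42-fold. Among the 26033 probes measured on both sides in PMCAO at 24 h, *Cga* had the third highest mean ratio. *Cga* was chosen on these ratios, so nothing is read from this rank. Probes dim on a side, such as *Prl*, are left out of it. With normexp the mean *Cga* ratio in PMCAO was 1.65-fold, and in sham it was 1.48-fold, just under the threshold used here.

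At 6 h *Cga* was somewhat lower with PACAP38. Its signals were 73.5 and 91.8 with saline and 44.7 and 73.0 with PACAP38 in sham, and 97.9 and 108 with saline and 62.2 and 82.6 with PACAP38 in PMCAO, well above background throughout. The log2 ratios were -0.72 and -0.33 in sham and -0.79 and -0.24 in PMCAO, means of 0.696-fold and 0.699-fold. The sign was thus negative on all 4 arrays of 6 h and positive on all 4 of 24 h. In both 6 h comparisons the array with PACAP38 in Cy3 alone did not pass 0.75-fold, and with normexp and loess, which replace both the background correction and the dye normalization of the scanner software, the mean log2 ratios were -0.13 and -0.14, within the thresholds. The order of *Cga* levels at 24 h was PMCAO PACAP38, sham PACAP38, PMCAO saline and sham saline, with no overlap between neighbors. At 6 h the order was PMCAO saline, sham saline, PMCAO PACAP38 and sham PACAP38, and of these neighbors the first and second did not overlap while the others did. Within each surgery the saline and PACAP38 signals of 6 h did not overlap, although in sham the nearest were 73.5 and 73.0.

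*Gh* was near or below background in most channels, with 1 of 8 channels well above background at 6 h and 1 of 8 at 24 h. In PMCAO at 24 h it was 16.3 (Cy3) and 17.5 (Cy5) with saline, the latter well above background, and 5.50 (Cy3) and 2.93 (Cy5) with PACAP38. The log2 ratios were -2.47 and -1.67, of the same sign as those of *Prl*, and the limit was at least 1.16-fold higher in saline, where 1 of the 2 saline arrays measured it. In sham at 24 h no channel was well above background, the highest signal being 5.40, so that no fold can be given.

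By the thresholds of the study, a mean above 1.5-fold or below 0.75-fold, 3 of the 11 probes passed at 6 h in sham and 2 in PMCAO, and 5 passed at 24 h in sham and 4 in PMCAO. In the same order, the share of all probes past the same thresholds was 11.5%, 12.3%, 5.62% and 11.2%, and the members were chosen on these ratios, so nothing is read from the difference. Of the passing probes, 2, 1, 3 and 0 had neither pool well above background. Their ratios are those of signals at background and are not interpreted. With the stricter requirement that both arrays pass in the same direction and the brighter pool be well above background on both, no member probe remained at 6 h in either surgery, and at 24 h the members left were *Cga* (up) and *Prl* (down) in both surgeries. Over all probes that rule called 0.18% up and 0.283% down in sham and 0.661% and 0.79% in PMCAO for the 6 h arrays, and 0.0656% and 0.299% in sham and 0.418% and 3.09% in PMCAO for the 24 h arrays. The median log2 ratio of the 11 probes was 0.08, -0.01, -0.11 and 0.20 in the 4 comparisons, while that of all probes was 0.00 in each.

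**Figure D2:**
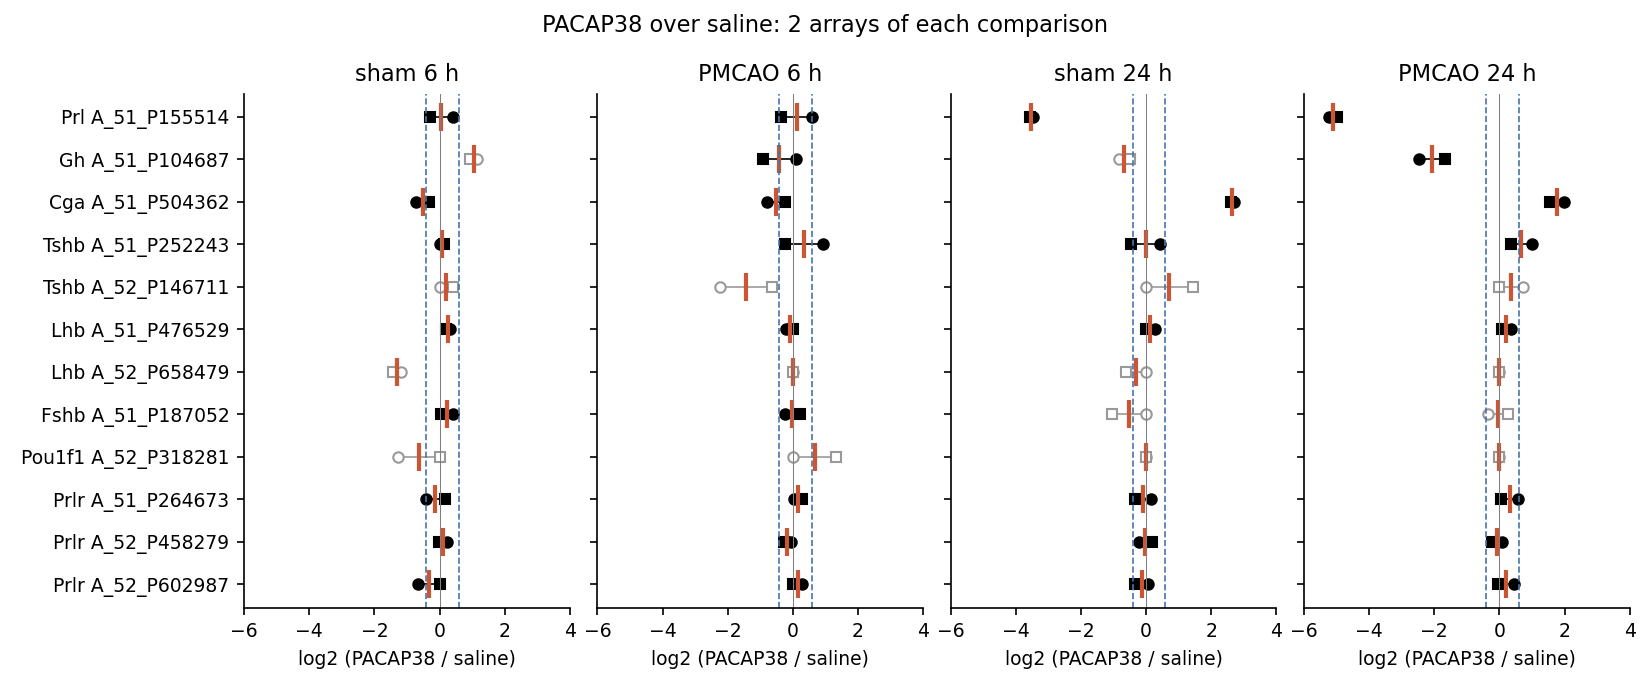
Log2 ratio of PACAP38 over saline for the 12 probes in the 4 comparisons, with circles for the array with PACAP38 in Cy5, squares for the array with PACAP38 in Cy3, red ticks for their mean, dashed lines at 1.5-fold and 0.75-fold, and open grey symbols where neither pool was well above background. At 24 h *Prl* lies at -3.48 and -3.57 in sham and at -5.22 and -4.98 in PMCAO, with *Cga* on the opposite side, and the filled symbols of *Prlr* and *Lhb* lie near 0.

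Of the beta subunits that pair with the *Cga* product, *Lhb* stayed within the thresholds and *Fshb* was not measured at 24 h. For *Tshb*, the probe above background was higher with PACAP38 in PMCAO at 24 h. *Lhb* probe A_51_P476529 was well above background in all 16 channels. Its signals at 24 h were 242 and 264 with saline and 264 and 290 with PACAP38 in sham, and 169 and 215 with saline and 180 and 272 with PACAP38 in PMCAO. The mean log2 ratios of this probe over the 4 comparisons ranged from -0.10 to 0.25, within the thresholds. The second *Lhb* probe, A_52_P658479, designed on a hypothalamic cDNA, was not well above background in any channel.

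*Tshb* probe A_51_P252243 was well above background in 7 of 8 channels at 24 h and 4 of 8 at 6 h. It was designed on a cDNA clone from neonate cerebellum annotated as the *Tshb* product. In sham at 24 h it gave 25.3 and 38.1 with saline and 27.7 and 34.0 with PACAP38, which overlap. In PMCAO at 24 h it gave 17.6 and 23.0 with saline and 29.2 and 34.8 with PACAP38, without overlap. The log2 ratios there were 0.99 and 0.34, a mean of 1.59-fold. The saline pool was above background on 1 of its arrays only, and the second array alone did not pass the threshold. With normexp the mean log2 ratio was 0.17. The other *Tshb* probe, A_52_P146711, was designed on the *Tshb* mRNA and was not well above background in any channel.

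*Fshb* was measured at 6 h and not at 24 h. All 8 channels of 6 h were well above background, with signals of 32.4 to 108, and none of the 8 channels of 24 h was, with signals of 3.39 to 8.20. Whether this goes with time or with the slide and scanner cannot be told apart. At 6 h the mean log2 ratios of PACAP38 over saline were 0.23 in sham and -0.01 in PMCAO. The probe of *Pou1f1* was not well above background in any of the 16 channels, with signals of 2.60 to 10.99.

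The prolactin receptor was measured by all 3 probes in all 16 channels. Probe A_52_P602987 gave 239 and 300.2 with saline and 238 and 248 with PACAP38 in sham at 24 h, and 202 and 231 with saline and 225 and 274 with PACAP38 in PMCAO at 24 h. Probe A_52_P458279 ranged from 71.6 to 92.9 and probe A_51_P264673 from 71.3 to 111 over the 8 channels of 24 h. Mean log2 ratios of PACAP38 over saline ranged from -0.34 to 0.31 over the 3 probes and 4 comparisons, and none passed a threshold. In PMCAO at 24 h the probes differed in direction, at 0.31 for A_51_P264673, 0.20 for A_52_P602987 and -0.09 for A_52_P458279, each smaller than the standard deviation of its 2 arrays (0.37, 0.34 and 0.22).

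**Figure D3:**
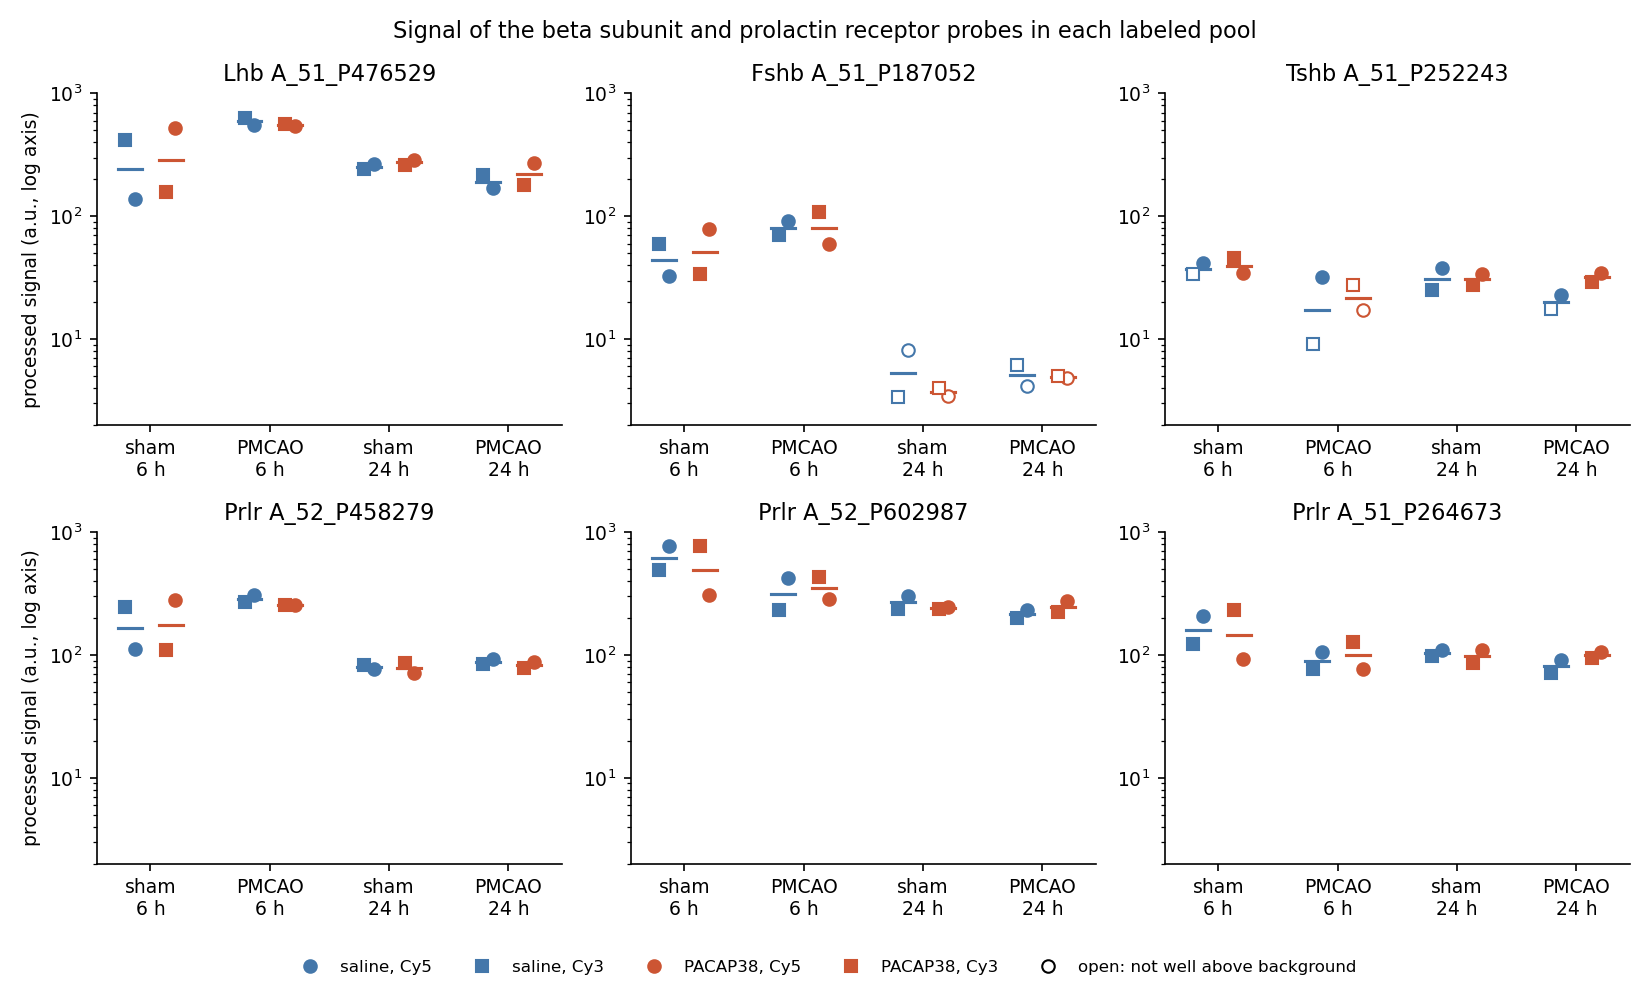
Processed signal (arbitrary units, log axis) of *Lhb*, *Fshb*, *Tshb* and the 3 *Prlr* probes, with symbols as in the plot of *Prl*, *Cga* and *Gh*. *Fshb* lies between 32.4 and 108 at 6 h and between 3.39 and 8.20 at 24 h, and in sham at 6 h the 2 arrays of *Lhb* lie 3.14-fold apart while the pools within an array lie close together.

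The same arrays allow PMCAO to be compared with sham, dye by dye, after centring on the median of probes well above background. At 24 h with saline *Prl* was higher in PMCAO, with log2 differences of 1.97 (Cy3) and 1.76 (Cy5), a mean of 3.64-fold, and all 4 signals were well above background. *Cga* was at least 1.53-fold higher in PMCAO with saline, since sham saline was not above background, and its log2 differences were 1.59 and 2.30. With PACAP38 *Cga* was again higher in PMCAO at 24 h, by 1.21 and 0.85 on the log2 scale, a mean of 2.04-fold, with all signals above background. *Gh* with saline was at least 1.29-fold higher in PMCAO, where 1 of the 2 PMCAO arrays measured it. *Prl* with PACAP38 was below background in both groups. With normexp and between-array normalization the mean log2 differences were 0.85 for *Prl* with saline and 0.23 and 0.39 for *Cga* with saline and PACAP38.

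Other members moved less at 24 h. *Tshb* A_51_P252243 was at 0.70-fold in PMCAO with saline, with log2 differences of -0.45 and -0.58, and at 0.13 with PACAP38. *Lhb* A_51_P476529 was at -0.30 with saline and -0.25 with PACAP38. The 3 *Prlr* probes ranged from -0.26 to 0.26 with saline and from 0.10 to 0.16 with PACAP38, none past a threshold. In all, 5 of 11 probes passed the thresholds with saline and 1 with PACAP38, against 22.1% and 14.3% of all probes. By the stricter rule *Prl* and *Cga* (up) and *Tshb* (down) remained with saline, and *Cga* (up) with PACAP38, against 5.0% up and 5.12% down, and 2.23% up and 2.01% down, of all probes.

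At 6 h the comparison of PMCAO with sham depended on the sham array that stood apart. By the mean of both dyes 9 of 11 probes passed with saline and 7 with PACAP38, but 52.4% and 46.6% of all probes also did, and with that array left out 6 and 2 passed. *Lhb* A_51_P476529 was 0.61 with saline and 0.11 with PACAP38 without that array, and 1.90 and 1.72 with it alone. The *Prlr* probes went in opposite directions, with mean log2 differences of -0.88 (A_51_P264673), -1.01 (A_52_P602987) and 0.77 (A_52_P458279) with saline. Without the array they were -0.66, -1.06 and 0.16. *Prl* was at 0.04 with saline and 0.11 with PACAP38, and *Cga* at 0.28 and 0.29. By the stricter rule *Lhb* A_51_P476529 was up and *Prlr* A_51_P264673 and A_52_P602987 were down with saline, and *Tshb* A_51_P252243 was down with PACAP38, while all probes gave 6.92% up and 8.08% down, and 4.32% up and 3.84% down.

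**Figure D4:**
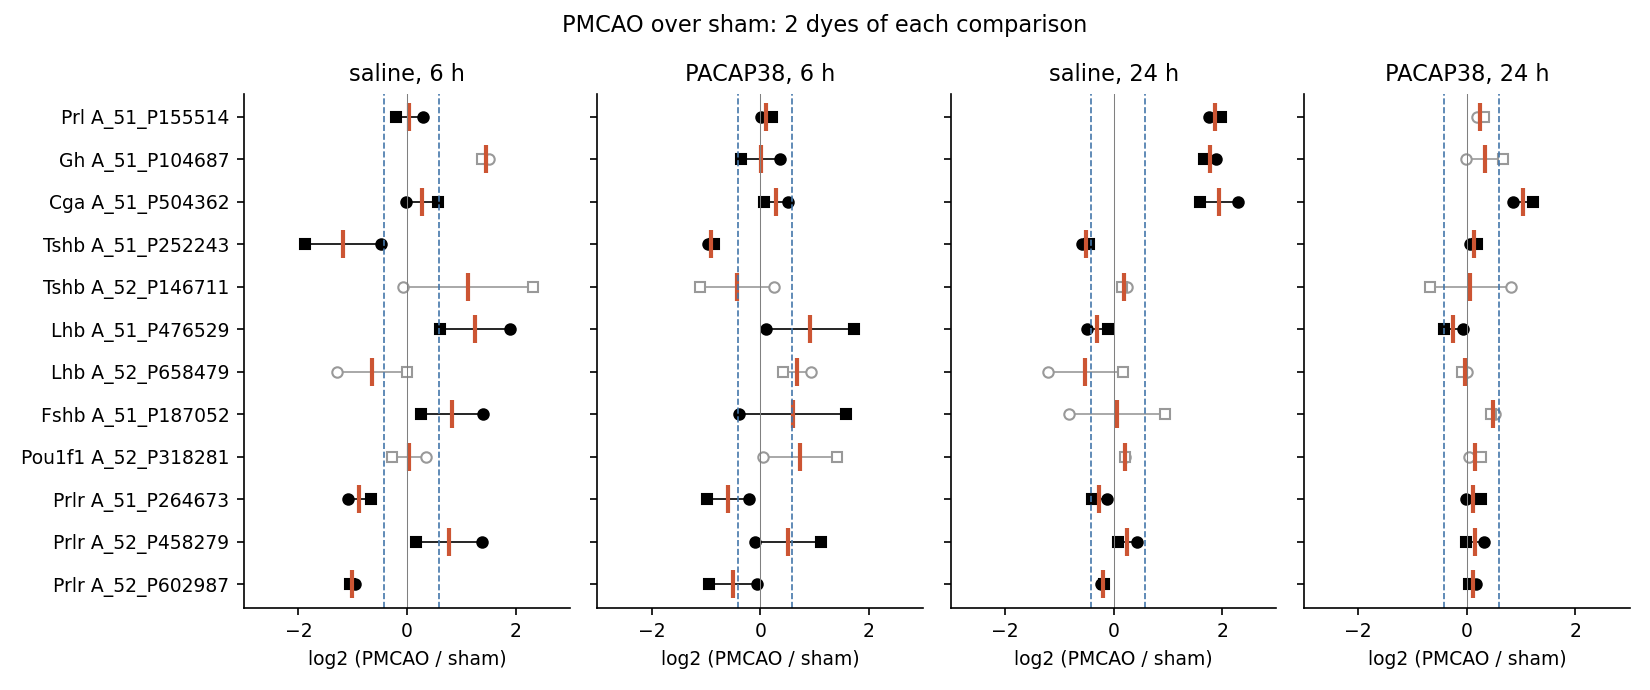
Log2 difference of PMCAO over sham for the 12 probes, within saline and within PACAP38 at each time point, with circles for Cy5, squares for Cy3, red ticks for their mean, dashed lines at 1.5-fold and 0.75-fold, and open grey symbols where neither group was well above background. At 24 h with saline *Prl* (1.97 and 1.76) and *Cga* (1.59 and 2.30) lie to the right, and at 6 h the 2 dyes of *Lhb* and *Fshb* lie far apart.

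Other genes of the gland were read from lists, to see what else of the pituitary was present in the hemisphere pools. Of 16 pituitary transcription factors, 7 were well above background on both arrays of each saline pool of 24 h and 8 on both arrays of each PACAP38 pool. Their summed signal was 3935 to 4209 with saline and 3971 to 4297 with PACAP38 in sham, and 3417 to 3501 and 3781 to 3852 in PMCAO. *Hesx1*, *Tbx19*, *Six6* and *Neurod4*, like *Pou1f1*, were not well above background in any of the 16 channels. *Sox2*, *Isl1* and *Gata2*, which neurons or neural progenitors also express, were well above background in all 16. Of the 8 measured genes of other pituitary hormones and of receptors for releasing factors, 5 were well above background on both arrays of each 24 h pool. *Pomc*, the precursor of corticotropin and also a gene of hypothalamic neurons, was well above background in all 16 channels, at log2 ratios of -0.26 in sham and -0.03 in PMCAO at 24 h. Of the receptors in this list, *Trhr*, *Crhr1*, *Drd2* and *Sstr2* were well above background in all 16 channels, *Ghrhr* in 6, *Avpr1b* in 5 and *Gnrhr* in 0. The part of pituitary tissue in the *Prl* and *Cga* values was not tested, and in whole-hemisphere RNA fewer cells of a type and less RNA per cell cannot be told apart.

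By the stricter rule none of the 87 listed genes with a probe passed for PACAP38 over saline in either surgery at 6 h, where 64 of them were above background in at least 1 channel of each comparison, or in sham mice at 24 h, where 54 were. In PMCAO at 24 h 1 was up and 6 were down, of 53 above background. Of all probes 0.418% were up and 3.09% down there. By this rule more were down than up over the whole array as well, although its median log2 ratio was 0.00. The larger share of listed genes down was not tested. The glial genes were also lower there, with a list median of -0.34 (-0.38 with normexp) and a summed signal of 145570 to 146206 with saline against 100909 to 121987 with PACAP38. None of the 5 glial genes passed the stricter rule, and their part in the values of the lists that follow was not tested. The 6 neuronal genes had a list median of 0.09 there (0.05 with normexp), and none of them passed. *Pitx1*, a homeodomain factor of the anterior pituitary, was the one up, with log2 ratios of 1.27 and 0.84, a mean of 2.08-fold, and in sham it was at 1.19 and 0.53, of which the second did not pass. It was above background on 1 of the 2 saline arrays of each surgery, and with normexp its mean log2 ratio in PMCAO was 0.26.

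Among the releasing and inhibiting factors of the hypothalamus, 3 of 8 genes were down in PMCAO at 24 h and none up, beside 3.09% of all probes down. The list median was -0.46, beside -0.34 for the glial genes and 0.09 for the neuronal genes. *Th* makes dopamine, which inhibits prolactin release, and its log2 ratios were -0.84 and -0.73. *Kiss1*, a peptide gene upstream of gonadotropin release, was at -0.99 and -0.67, and *Avp*, the vasopressin gene, at -0.56 and -0.57. In sham at 24 h the list median was -0.13, and no gene of this list passed. The pools hold RNA of the hemisphere, and the part of the hypothalamus in these values was not tested.

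Among hormone receptors and prolactin signal genes, 2 of 12 were down in PMCAO at 24 h, beside 3.09% of all probes, both of them inhibitors of cytokine and prolactin receptor signaling. *Socs3* was at -1.11 and -1.06, a mean of 0.471-fold, and *Socs1* at -0.49 and -0.50. The list median was -0.21, beside 0.00 for all probes, -0.34 for the glial genes and 0.09 for the neuronal genes. Between PMCAO and sham at 24 h *Socs3* was 8.86-fold higher in PMCAO with saline, and at log2 differences of 2.25 and 2.16 with PACAP38. *Stat5a* was 1.93-fold higher with saline. *Jak2*, *Stat5b*, *Cish*, *Socs2* and *Ghr* were well above background in all 16 channels and passed in no comparison of PACAP38 with saline.

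The placental prolactin family, paralogs of *Prl* on the same chromosome, was mostly below background. Of 22 genes with a probe, 2 were well above background in at least 1 channel of either 24 h comparison, and 6 in either 6 h comparison. None passed the stricter rule for PACAP38 over saline. *Prl3d1* was the single one above background in all 16 channels, and between PMCAO and sham it was up at 6 h with saline, at 0.61 without the array that stood apart and 1.85 with it alone. In the choroid plexus, a site of *Prlr*, 1 of 10 genes was down with PACAP38 in PMCAO at 24 h, beside 3.09% of all probes, the water channel *Aqp1* at -0.53 and -0.87. The list medians were -0.16 in sham and -0.09 in PMCAO.

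Between PMCAO and sham, 6 of the 87 genes were up and 6 down at 24 h with saline, and 2 up and 5 down with PACAP38. Of all probes 5.0% were up and 5.12% down with saline, and 2.23% and 2.01% with PACAP38, so that several of these counts lie near the share of the whole array, and the genes are named as a description. Of the pituitary transcription factors *Gata2* was 1.63-fold higher and *Neurod1* and *Isl1* were at 0.669-fold and 0.716-fold with saline, and *Isl1* was at 0.741-fold with PACAP38. *Th* and *Kiss1* were 1.68-fold and 2.06-fold higher with saline. *Drd2*, the dopamine receptor, was at 0.526-fold and *Sstr2*, a somatostatin receptor, at 0.638-fold with saline, while *Sstr2* and *Crhr1* were at 0.575-fold and 0.739-fold with PACAP38. In the choroid plexus *Sostdc1* was at 0.469-fold and 0.551-fold with saline and PACAP38, and *Kcne2* at 0.653-fold with saline. *Gfap*, the astrocyte filament gene, was 2.24-fold and 1.95-fold higher, and *Aif1* of microglia was at 0.582-fold with PACAP38. At 6 h 8 were up and 9 down with saline and 2 up and 3 down with PACAP38, near the shares of all probes (6.92% up and 8.08% down with saline, 4.32% and 3.84% with PACAP38). Without the array that stood apart *Socs3* was at 2.29 with saline and 2.01 with PACAP38, and *Th* and *Kiss1* at 0.78 and 0.62 with saline. *Isl1* and *Sox2* were at -0.82 and -0.88 with saline and at -0.82 and -0.85 with PACAP38, and *Otx2*, *Sostdc1* and *Kcne2* of the choroid plexus at -0.94, -0.69 and -1.13 with saline.

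The level of *Prl* over the 8 pools, centred within each time point, was set against those of 9468 probes with a symbol, a signal above background on both arrays of at least 1 pool and a log2 range of 1 or more. The 5 genes most like *Prl* were *Reg3g* (r = 0.991), *Ltf* (0.929), *Jmjd4* (0.922), *Gla* (0.915) and *Xlr4b* (0.909). Those most like *Cga* were *Ly6k* (0.835), *4930432K21Rik* (0.832), *Anp32a* (0.788), *Pkdrej* (0.728) and *Scn10a* (0.702). Over the same pools *Prl* correlated with *Cga* at -0.64. Both were chosen for their ratios on these arrays, so nothing is read from this value. Values of *Prl* and *Cga* in pools not above background enter these correlations as measured. No likeness is given for *Gh*, which was well above background on both arrays of no pool. The points are 8 pools that share arrays and slides, and only 1 of each 5 genes stayed among the 5 with rank correlation, and 1 with normexp, so these lists are descriptive.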

How the data were processed

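The authors labeled 900 ng of pooled total RNA per dye, hybridized whole-genome 60-mer arrays (Agilent 4 x 44K) and deposited scanner tables made by Feature Extraction. Its version is 9.5.1.1 in the headers of the 6 h files, and 9.5.3.1 in those of 24 h and in the submitters' processing notes. The deposited log10 ratio is Cy5 over Cy3 after background subtraction and dye normalization. The deposited intensity columns hold processed signals, mean signals and local background, and the deposited flags (0 or 1) mark outlier spots, saturation and signal well above background. A further deposited table holds the linear ratio Cy5 over Cy3, and for arrays with PACAP38 in Cy3 a deposited score, which is that ratio with a minus sign. Its size differed from the ratio of the processed signals by a median of at most 0.0026 (relative), and its column medians ran from 0.96 to 1.01 and from -0.98 to -0.93. For 3 arrays of 24 h a second copy held the same values and was not used.

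The 2 arrays of a comparison were taken as a dye swap of the same pools, 1 replicate. Ratios were converted to log2 with PACAP38 over saline positive. Control spots and outlier spots were left out, although none of the member spots was an outlier, and the spots of a probe and then the 2 arrays were averaged. PMCAO over sham was taken from processed signals of the same dye and time. A probe was named through RefSeq for 22944 of 41174 probes by accession, 6664 by name and 3108 by synonym. Of 92 listed genes 87 had a probe, and the brightest one was used. Listed genes were named in the text where both arrays passed a threshold in the same direction and the brighter group was well above background on both, up to 4 per list and comparison. The members, the lists and the thresholds were chosen with earlier results of these data known. Depth is not defined for arrays, and 1 pool a group limits the precision.

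Alternatives were normexp (offset 50) with loess and Aquantile in limma 3.58.1 (R 4.3.3), the deposited ratio table, each array alone, marked spots kept, only probes above background, both arrays past the threshold, 1.5-fold in both directions, no centring, and rank correlation. The averaging was run on simulated data in which the dye effect cancels between the arrays by design. That run cannot show the effect of background or of an array that stands apart. Python 3.11.15, numpy 2.4.6, pandas 2.3.3 and matplotlib 3.10.9 were used.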

Additional observations from a re-analysis of the deposited data

Results flagged for a closer look

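*Cga* was lower with PACAP38 on every array of 6 h (mean log2 ratio -0.52) and higher on every array of 24 h (mean 2.21). The difference between the times was not tested, and time and slide cannot be told apart. *Lhb* A_51_P476529 was higher in PMCAO than in sham in every dye of 6 h (mean log2 difference 1.08 over saline and PACAP38) and lower in every dye of 24 h (mean -0.27). This was not tested either, and at 6 h the sham array that stood apart carries 1.90 and 1.72 of it against 0.61 and 0.11 on the other. *Tshb* A_51_P252243 at 24 h was lower in PMCAO than in sham with saline in both dyes (mean -0.51) and slightly higher with PACAP38 (mean 0.13), and *Prlr* A_52_P602987 at 24 h was at -0.20 with saline and 0.10 with PACAP38, again on both dyes each and not tested. The *Prlr* means are within the thresholds. Without centring this probe was at -0.31 with saline and 0.03 with PACAP38. *Prlr* A_51_P264673 also had means of opposite sign (-0.26 and 0.12), with the dyes of PACAP38 at 0.25 and -0.02.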

How the results depend on the processing

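At 24 h the direction of *Prl* and *Cga* for PACAP38 over saline held under normexp with loess, in the deposited table, on each array alone and with marked spots kept. Their size held in all of these but normexp. Its offset of 50 is added to both channels and must draw ratios of dim probes toward 1. The smaller sizes and counts with normexp follow at least in part from that setting, and its share was not separated. The *Prl* limits of 2.53-fold and 8.25-fold became 1.51-fold and 2.89-fold with normexp, and the *Cga* limit in sham of 2.94-fold became 1.47-fold. Over the 48 values of PACAP38 over saline (12 probes, 4 comparisons), 16 moved by more than the spread of the arrays under normexp and 4 in the deposited table.

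The counts of passing probes moved more. For PACAP38 over saline, normexp left 0 of 3 (sham) and 0 of 2 (PMCAO) at 6 h, and 1 of 5 and 2 of 4 at 24 h. With only probes above background, 1 and 1 passed at 6 h and 2 in sham at 24 h. With both arrays required, 1 passed in PMCAO at 6 h and 3 in sham at 24 h, and with 1.5-fold in both directions 1 passed in PMCAO at 6 h. Single arrays gave 2 to 4 in both surgeries at 6 h, and 3 to 7 (sham) and 3 to 5 (PMCAO) at 24 h. For PMCAO over sham, normexp left 3 of 9 (saline) and 2 of 7 (PACAP38) at 6 h, and 1 of 5 and 0 of 1 at 24 h. With only probes above background, 5 (6 h) and 3 (24 h) passed with saline, and with 1.5-fold in both directions 3 passed with saline at 24 h. Single dyes gave 6 to 8 (saline) and 2 to 7 (PACAP38) at 6 h, and 5 to 7 and 2 to 4 at 24 h. *Fshb* with PACAP38 at 6 h reversed, at -0.38 without the sham array that stood apart and 1.57 with it alone. The cause was not tested. No paired analysis was possible because the results come from no test. Signal over background limits *Gh*, *Fshb* at 24 h and the dim sides of *Prl* and *Cga*.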
